A study of Arabidopsis thaliana with 12 samples.

Results

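The A-type response regulators of Arabidopsis thaliana were described here through 10 genes chosen by their locus codes: ARR3 (AT1G59940), ARR4 (AT1G10470), ARR5 (AT3G48100), ARR6 (AT5G62920), ARR7 (AT1G19050), ARR8 (AT2G41310), ARR9 (AT3G57040), ARR15 (AT1G74890), ARR16 (AT2G40670) and ARR17 (AT3G56380). They are 10 of the 25665 loci that the array's probes name, and each has 1 probe. The rule used locus codes and no measured value, but earlier results of these data were known when the genes were chosen. A transcript was tested if some group had all 3 of its arrays well above background for the probe, which held for 9 of the 10 genes and failed for ARR17.

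Total RNA of 12 samples in 4 groups of 3 was hybridised to one-colour Agilent arrays. The control group was untreated wild-type Col-0 seedlings, 14 days old and intact. The 35S:WIND1 group was untreated callus on Col-0 plants that carry WIND1, a wound-induced transcription factor of the AP2/ERF family, under the 35S promoter, which drives expression in most cell types. T87 callus came from a long-cultured cell line and was kept on 500 nM NAA, and 2,4-D-induced callus was wild-type Col-0 tissue kept on 500 µg/L 2,4-D, both agents being synthetic auxins. All material grew on solid MS medium, and the labels name no cytokinin in it. The labels call each replicate a different plant or callus. They do not say how many transgenic lines the 35S:WIND1 calli came from, and all T87 calli share 1 cell line. The design asks how callus made through WIND1 compares with seedlings and with calli kept by auxin.

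Cytokinin acts in plants through a phosphorelay. Histidine kinase receptors (AHK) pass a phosphate to phosphotransfer proteins (AHP), which carry it to the B-type response regulators, transcription factors that switch on cytokinin target genes. The A-type genes are among the first of these targets. Their products have a receiver domain, lack the DNA-binding output domain of the B-type proteins and damp the same relay, so their transcripts are widely used as a readout of cytokinin response. They form 5 pairs of close relatives, ARR3 with ARR4, ARR5 with ARR6, ARR7 with ARR15, ARR8 with ARR9, and ARR16 with ARR17. In classical tissue culture the balance of auxin and cytokinin sets whether callus stays undifferentiated or forms shoots or roots.

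Values are log2 levels, the log2 of the processed spot signal minus the 75th percentile of its array, so 0 is the signal of a transcript at that percentile. Levels of different probes are not comparable, and each gene is compared only with itself. Cross-hybridisation between paralogues was not tested, as no probe sequence was used here. A change counted as called when limma's p, adjusted over 21347 genes by Benjamini and Hochberg's method, was under 0.05 and the difference was at least 2-fold. The 75th percentile ran from 1755 to 3716 units across arrays, and the share of spots well above background from 57.05% to 65.91%. Correlations between arrays of a group ran from 0.944 in 35S:WIND1 callus to 0.991 in seedlings. The WIND1 transcript had log2 levels of 1.26 ± 0.09 (SD, n = 3) in seedlings and 3.58 ± 0.35 in 35S:WIND1 callus, a rise of 2.31 (SE 0.21, adjusted p = 1.52e-05). It was also higher than in seedlings in T87 callus, by 1.01, and in 2,4-D-induced callus, by 1.60. In 35S:WIND1 callus it was called higher than in T87 callus, by 1.30. Its difference of 0.71 from 2,4-D-induced callus was not called, although all 35S:WIND1 arrays were higher. The T87 call against seedlings sat at the 2-fold limit and was lost with quantile normalization and the deposited series values. It was also lost without replicate 1 or 3 of the seedlings or of T87 callus. Each array slide carried 1 array of every group, always at the same place for a group, so group and slide position cannot be told apart.

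In 35S:WIND1 callus all 9 tested A-type transcripts were called lower than in seedlings and none higher, where 19.6% of all tested genes were called lower and 12.5% higher. The measured differences had a median of -3.88, which is the value of ARR3, a gene not well above background in this callus. With ARR3 at its bound the median was -3.53, beside 0.07 over all genes. On each of the 3 slides every one of the 9 was lower in 35S:WIND1 callus, and no array of 1 group overlapped the other for any of them, where 29.8% of all genes showed such a separation downward. For 6 of them, ARR4 to ARR9, all 6 arrays of the compared groups were well above background, and each was called, from -1.86 for ARR5 to -4.28 for ARR6. Because ARR3, ARR15 and ARR16 passed the filter through other groups and were not well above background on at least 2 of the 3 35S:WIND1 arrays, the count of 9 includes genes that could hardly have been called higher. With all 9 called lower, none could have an unadjusted p under 0.05 in the higher direction. The count stayed at 9 with each array left out in turn. It fell to 3 when the background was corrected with normexp, after which the lower quartile of signals ran from 81.8 to 1838.7 units across arrays, against 45 to 65 before, and it was 9 when the local background was subtracted and 50 units added. With the deposited series values it was 8, without ARR5. Lower levels can come from fewer responding cells or from less RNA per cell, and these cannot be told apart in such bulk samples.

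In T87 callus 4 of 9, ARR3, ARR6, ARR9 and ARR15, were called lower than in seedlings and none higher, against 26.5% and 20.8% of all tested genes. Of the 8 whose probes were well above background throughout both groups, 3 were called lower. ARR3 was not well above background on any T87 array and could hardly have been called higher. At an unadjusted p under 0.05, 7 were lower and none higher. On every array 7 were lower than all seedling arrays, against 40.8% of all genes. The median change of the 9 was -1.52 beside -0.0036 over all genes. The count rose to 7 without T87 replicate 2 and to 6 without T87 replicate 3, to 5 without 35S:WIND1 replicate 2 or replicate 3, which change only the shared estimate of spread, and it fell to 1 with normexp.

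In 2,4-D-induced callus members went both ways. ARR3 and ARR5 were called higher than in seedlings, against 18.6% of all genes, and ARR8, ARR15 and ARR16 were called lower, against 24.2%. ARR16 was not well above background on any 2,4-D array and could hardly have been called higher. Of the 8 whose probes were well above background throughout both groups, 2 were called higher and 2 lower, near the shares of all genes. Of the 9 genes, 5 (ARR3, ARR4, ARR5, ARR6 and ARR9) were higher on every array and 4 (ARR7, ARR8, ARR15 and ARR16) lower on every array, where 44.4% and 35.5% of all genes were separated in these directions, so the separation itself was near the background. Scaling to the array median instead of the 75th percentile moved the median of all genes from 0.15 to 0.90 and the members' calls to 5 higher and 2 lower, beside 9641 higher and 3798 lower among all genes. With normexp no member was called by limma in either direction, and 3 were higher at an unadjusted p under 0.05.

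**Figure D1:**
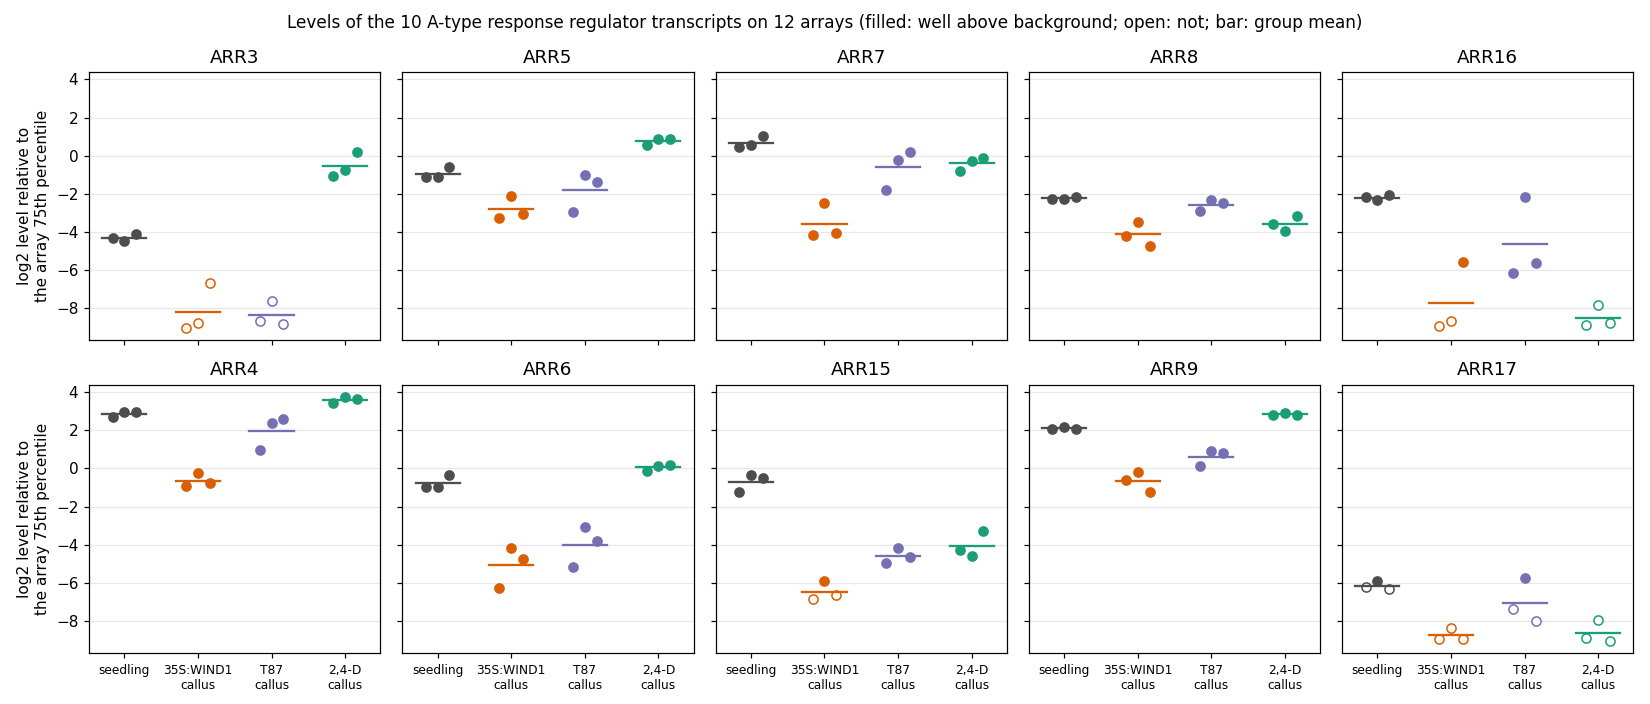
Log2 level relative to the array's 75th percentile (vertical axis) of each of the 10 A-type transcripts on each of the 12 arrays, with a panel for each gene, the 4 groups along the horizontal axis, filled points for arrays well above background, open points for the others and bars for group means. The 35S:WIND1 points lie below the seedling points in all 9 tested genes, while the 2,4-D points of ARR3, ARR4, ARR5, ARR6 and ARR9 lie above them.

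ARR3 and ARR4 are a pair with a known part in the period of the circadian clock, and ARR4 also binds the red-light receptor phytochrome B. ARR3 had log2 levels of -4.32, -4.49 and -4.09 in seedlings and of -1.05, -0.73 and 0.17 in 2,4-D-induced callus. It read -9.05, -8.80 and -6.70 in 35S:WIND1 callus and -8.70, -7.60 and -8.84 in T87 callus, where no array was well above background. So ARR3 was measured in seedlings and 2,4-D-induced callus, highest in the latter with no overlap, and the other two groups have only an upper bound. In such a case the fold is given as "at least", set against a floor that each dim array supplies, namely its dimmest signal still well above background or, if higher, the signal of the gene itself. ARR3 rose 13.5-fold in 2,4-D-induced callus (log2 change 3.76, SE 0.59, adjusted p = 0.000301). From the seedlings it fell at least 5.17-fold in 35S:WIND1 callus (adjusted p = 0.000414) and at least 5.10-fold in T87 callus (adjusted p = 0.000154). Set against 2,4-D-induced callus, it was at least 70.0-fold lower in 35S:WIND1 callus and at least 69.0-fold lower in T87 callus.

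ARR4 had log2 levels of 2.68, 2.98 and 2.98 in seedlings, -0.91, -0.24 and -0.78 in 35S:WIND1, 0.94, 2.38 and 2.61 in T87 and 3.42, 3.76 and 3.64 in 2,4-D-induced callus. All 12 arrays were well above background, and the groups followed the order 2,4-D-induced callus, seedlings, T87 callus, 35S:WIND1 callus with no overlap between neighbours. ARR4 fell 11.5-fold in 35S:WIND1 callus against seedlings (log2 change -3.53, SE 0.38, adjusted p = 4.21e-05). T87 and 2,4-D-induced callus missed the call against seedlings, at -0.90 (SE 0.38, adjusted p = 0.0547) and 0.73 (SE 0.38, adjusted p = 0.112). Among calli, ARR4 was 6.17-fold lower in 35S:WIND1 than in T87 callus and 3.09-fold lower in T87 than in 2,4-D-induced callus. T87 replicate 1 was the low array of its group, and without T87 replicate 2 or replicate 3 the fall from seedlings was called, at -1.10 and -1.22.

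ARR5 and ARR6 are classical early cytokinin-induced genes, and the ARR5 promoter is a standard reporter of cytokinin response. ARR5 levels ranged from -1.13 to -0.59 in seedlings, from -3.28 to -2.10 in 35S:WIND1 callus, from -2.97 to -1.01 in T87 callus and from 0.57 to 0.88 in 2,4-D-induced callus. The 2,4-D arrays were the highest and the 35S:WIND1 arrays lay below the seedlings, whereas the T87 arrays overlapped both seedlings and 35S:WIND1 callus. ARR5 fell 3.63-fold in 35S:WIND1 callus (log2 change -1.86, SE 0.47, adjusted p = 0.008) and rose 3.28-fold in 2,4-D-induced callus (1.71, SE 0.47, adjusted p = 0.00874), each against seedlings. The 35S:WIND1 change was not called with the deposited series values (-1.37, adjusted p = 0.0512). Its change of -0.84 in T87 callus was not called (adjusted p = 0.138), and this value became 0.032 with array median scaling.

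ARR6 had log2 levels of -0.99, -0.98 and -0.37 in seedlings, -6.26, -4.17 and -4.76 in 35S:WIND1, -5.18, -3.05 and -3.81 in T87 and -0.14, 0.11 and 0.18 in 2,4-D-induced callus. Its arrays fell into a high pair of groups, seedlings and 2,4-D-induced callus, and a low pair, T87 and 35S:WIND1 callus, which overlapped each other. ARR6 fell 19.5-fold in 35S:WIND1 callus (log2 change -4.28, SE 0.58, adjusted p = 0.000199) and 9.41-fold in T87 callus (-3.23, SE 0.58, adjusted p = 0.00065). Its 2,4-D change of 0.83 was not called (SE 0.58, adjusted p = 0.231), although all 2,4-D arrays lay above all seedling arrays. Unlike ARR5, ARR6 was therefore called lower than in seedlings in T87 callus, but the difference between the pair's changes was not tested.

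ARR7 and ARR15 act in the shoot meristem and the embryonic root, and both are reported targets of the auxin response factor ARF5, also called MONOPTEROS. ARR7 had log2 levels of 0.44, 0.56 and 1.02 in seedlings, -4.17, -2.46 and -4.06 in 35S:WIND1, -1.78, -0.23 and 0.21 in T87 and -0.79, -0.26 and -0.14 in 2,4-D-induced callus. Seedlings were highest and 35S:WIND1 callus lowest without overlap, and the T87 and 2,4-D arrays between them overlapped. ARR7 fell 18.8-fold in 35S:WIND1 callus (log2 change -4.24, SE 0.55, adjusted p = 0.00015). It was 7.80-fold lower there than in T87 callus (adjusted p = 0.00109) and 8.98-fold lower than in 2,4-D-induced callus (adjusted p = 0.00102). The changes of -1.27 in T87 callus (adjusted p = 0.0625) and -1.07 in 2,4-D-induced callus (adjusted p = 0.112) were not called. With the replicate number as a block, and without T87 replicate 3 or 35S:WIND1 replicate 2, the T87 change was called.

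ARR15 was called lower than in seedlings in all 3 calli. Its log2 levels were -1.25, -0.37 and -0.52 in seedlings, -6.83, -5.91 and -6.65 in 35S:WIND1, -4.97, -4.19 and -4.64 in T87 and -4.26, -4.58 and -3.30 in 2,4-D-induced callus. Only 1 of the 3 35S:WIND1 arrays was well above background. The T87 and 2,4-D arrays overlapped, and the seedling and 35S:WIND1 arrays stood apart above and below them. Against seedlings ARR15 fell 53.7-fold in 35S:WIND1 callus (log2 change -5.75, SE 0.39, adjusted p = 2.52e-06), a fold that rests in part on signals near background. It fell 14.8-fold in T87 callus (-3.88, SE 0.39, adjusted p = 1.07e-05) and 10.1-fold in 2,4-D-induced callus (-3.33, SE 0.39, adjusted p = 3.55e-05).

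ARR8 and ARR9 form the next pair, and extra ARR8 is known to hold back shoot formation from callus, whereas extra ARR4 promotes it. ARR8 ranged from -2.28 to -2.18 in seedlings, from -2.92 to -2.31 in T87 callus, from -3.95 to -3.18 in 2,4-D-induced callus and from -4.71 to -3.48 in 35S:WIND1 callus. The 2,4-D and 35S:WIND1 arrays overlapped at the low end, and the T87 arrays lay just under the seedlings. ARR8 fell 3.70-fold in 35S:WIND1 callus (log2 change -1.89, SE 0.30, adjusted p = 0.000563) and 2.52-fold in 2,4-D-induced callus (-1.34, SE 0.30, adjusted p = 0.00299). The 2,4-D call was lost with quantile normalization (-0.85, under the 2-fold limit) and array median scaling (-0.59, adjusted p = 0.101). Its change of -0.33 in T87 callus was not called (SE 0.30, adjusted p = 0.352) and turned positive with quantile normalization, at 0.15, and with array median scaling, at 0.54.

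ARR9 went the other way from ARR8 in 2,4-D-induced callus. It ranged from 2.08 to 2.19 in seedlings, from 2.79 to 2.91 in 2,4-D-induced callus, from 0.10 to 0.91 in T87 callus and from -1.22 to -0.20 in 35S:WIND1 callus, so none of its groups overlapped. ARR9 fell 6.92-fold in 35S:WIND1 callus (log2 change -2.79, SE 0.26, adjusted p = 1.91e-05) and 2.87-fold in T87 callus (-1.52, SE 0.26, adjusted p = 0.000493). With array median scaling the T87 change was -0.65 and under the 2-fold limit, where the median of all genes moved to 0.86. Its 1.63-fold higher level in 2,4-D-induced callus had an adjusted p of 0.0356 and stayed under the 2-fold limit. The difference between the changes of ARR9 and ARR8 was not tested.

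ARR16 and ARR17 form the last pair, and ARR17 failed the filter on dim probes. ARR16 had log2 levels of -2.19, -2.35 and -2.07 in seedlings, -6.14, -2.17 and -5.62 in T87 callus, -8.96, -8.66 and -5.59 in 35S:WIND1 callus, and -8.88, -7.85 and -8.78 in 2,4-D-induced callus. It was well above background on 1 of 3 35S:WIND1 arrays and on none of the 2,4-D arrays. T87 replicate 2 stood at the seedling level, far above the other T87 arrays, and 35S:WIND1 replicate 3 stood far above the others of its group. ARR16 fell at least 19.2-fold in 2,4-D-induced callus (adjusted p = 0.000497) and 46.4-fold in 35S:WIND1 callus (log2 change -5.54, SE 1.07, adjusted p = 0.0018). The latter fold is no bound and rests in part on signals near background, so these folds cannot be ranked. The T87 change of ARR16, -2.44, was not called (SE 1.07, adjusted p = 0.0653), and without T87 replicate 2 it was called at -3.68 (adjusted p = 0.00476). ARR17 was well above background only in seedling replicate 2 and T87 replicate 2, at -5.89 and -5.76, and the arrays give no test of it.

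**Figure D2:**
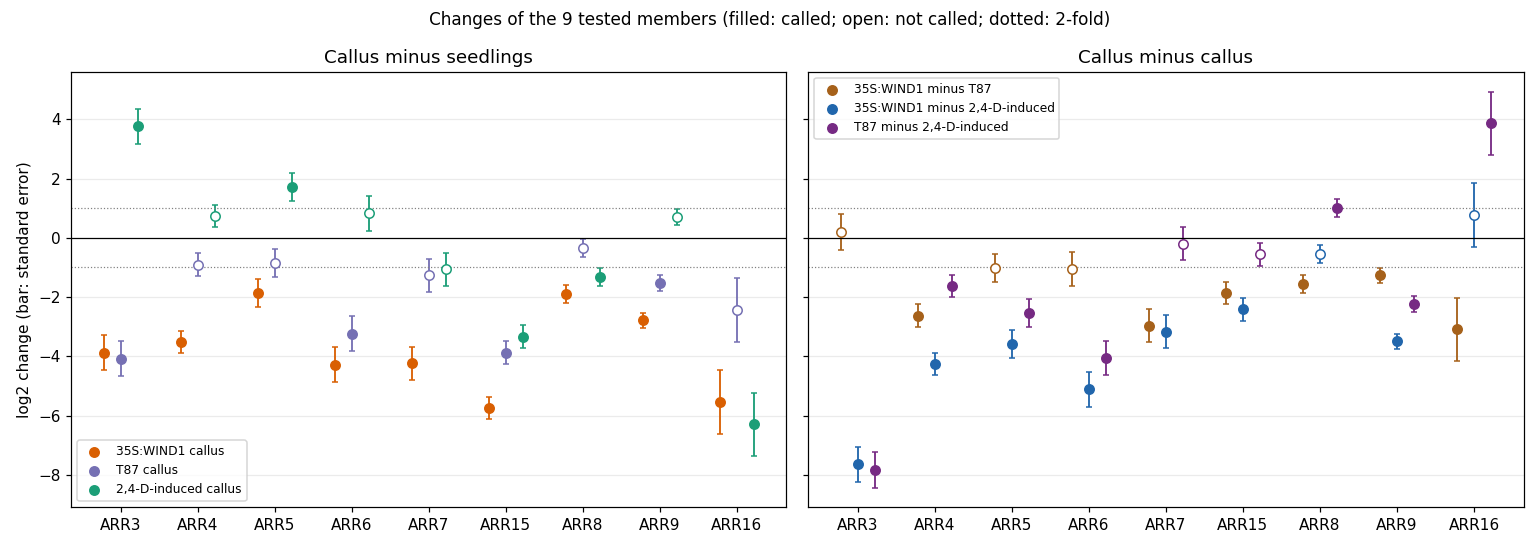
Log2 change with its standard error (vertical axis) for the 9 tested A-type transcripts (horizontal axis), on the left for each callus minus seedlings and on the right for each pair of calli, with filled points for called changes, open points for the others and dotted lines at 2-fold. All 9 orange points of 35S:WIND1 callus are filled and below 0, while the green 2,4-D points lie on both sides of 0. Points against ARR3 in 35S:WIND1 or T87 callus, or ARR16 in 2,4-D-induced callus, rest on signals not well above background and are no bounds. Those of ARR15 and ARR16 in 35S:WIND1 callus rest on such signals in part.

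The calli were also compared with each other. Against 2,4-D-induced callus, 7 of 9 A-type transcripts were called lower in 35S:WIND1 callus and none higher, where 11.7% of all tested genes were called lower and 16.8% higher. These 7 were ARR3 to ARR7, ARR9 and ARR15. Of the 6 members well above background throughout both groups, 5 were called lower, from -3.17 for ARR7 to -5.11 for ARR6. ARR3 was at least 70.0-fold lower, and ARR15, at -2.41, was measured on 1 of 3 35S:WIND1 arrays. All 7 were lower on every array and every slide, against 28.4% of all genes lower on every array. ARR6 was 34.6-fold lower, ARR4 19.1-fold, ARR5 11.9-fold, ARR9 11.3-fold and ARR7 8.98-fold. ARR8, at -0.55 (adjusted p = 0.157), and ARR16, near background in both calli, were not called. The count was 7 with any array left out and 3 with normexp.

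Against T87 callus, 6 of 9 were called lower in 35S:WIND1 callus and none higher, beside 16.8% and 20% of all genes. Among the 6 well above background throughout both groups, 4 were called lower. The count was 4 with the deposited series values, where ARR8 (adjusted p = 0.0774) and ARR9 (adjusted p = 0.127) were lost, and 4 with local background subtraction, where ARR15 (-0.61) and ARR16 (-1.11) were lost. ARR7 had a change of -2.96, ARR4 of -2.62, ARR15 of -1.86, ARR8 of -1.56 and ARR9 of -1.27, each with arrays that did not overlap, as 30.9% of all genes had. The sixth, ARR16 at -3.10 (adjusted p = 0.0298), had overlapping arrays and was not called without T87 replicate 2, 35S:WIND1 replicate 1 or 35S:WIND1 replicate 2. ARR9 missed the 2-fold limit without 35S:WIND1 replicate 3. ARR5 and ARR6, at -1.02 and -1.05, were not called here, but both were called without T87 replicate 1, with quantile normalization and with array median scaling, and ARR5 also without 35S:WIND1 replicate 2 and with the replicate block. Of the 9, ARR3 was below background in both calli.

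T87 callus was called lower than 2,4-D-induced callus for 5 of 9, beside 19.2% of all genes, and higher for 2, beside 19.7%. Among the 7 well above background throughout both groups, 4 were called lower and 1 higher. ARR3 (at least 69.0-fold), ARR6 (-4.06), ARR5 (-2.55), ARR9 (-2.23) and ARR4 (-1.63) were lower in T87 callus. All 7 called genes were separated on every array, as 37% of all genes were downward and 34.9% upward. ARR16 was at least 3.53-fold higher (adjusted p = 0.0101) and ARR8 2.01-fold higher (adjusted p = 0.0152). The ARR8 call sat at the 2-fold limit and was lost without 2,4-D replicate 1 or 2 or T87 replicate 2 or 3. It was also lost with the deposited series values (1.15, adjusted p = 0.059), local background subtraction (0.67) and normexp (0.34). The ARR16 call was lost with local background subtraction (1.16, adjusted p = 0.0884) and with normexp, where the sign turned (-0.11). ARR8 and ARR16 thus had T87 callus above 2,4-D-induced callus, the reverse of ARR3, ARR4, ARR5, ARR6 and ARR9.

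In each group the median SD between replicates was larger for the tested A-type transcripts than for all genes, but not every member varied more. In T87 callus the median SD of the 9 was 0.91 beside 0.18 over all genes, in 35S:WIND1 callus 0.62 beside 0.36, in 2,4-D-induced callus 0.34 beside 0.20 and in seedlings 0.20 beside 0.11. The lowest member SD lay above the all-gene median in T87 callus, at 0.32. It lay below that median in 2,4-D-induced callus (0.07), in seedlings (0.05) and, barely, in 35S:WIND1 callus (0.356 beside 0.358). T87 replicate 1 was the lowest of its group for 8 of the 9 genes and T87 replicate 2 the highest for 7. In 35S:WIND1 callus replicate 1 was the lowest for 7 and replicate 2 the highest for 7. Replicate 1 was also the lowest for 6 in 2,4-D-induced callus and for 4 in seedlings, and in each of the 4 groups it was the highest for none. The replicate number is also the slide, so both are shared by these arrays, and the members are not independent of each other.

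Tissue markers also differed between the groups. The summed linear level of 9 photosynthetic leaf markers, relative to the 75th percentile, was 1018 to 1339 in seedlings, 228.3 to 317.8 in 35S:WIND1, 304.2 to 357 in T87 and 19.39 to 47.43 in 2,4-D-induced callus, and all 9 were well above background outside 2,4-D-induced callus, which had 8. The sum of 8 root markers was 35.51 to 41.94 in seedlings, 31.47 to 41.62 in 2,4-D-induced, 23.49 to 35.64 in 35S:WIND1 and 1.432 to 1.823 in T87 callus. The 5 vascular markers summed to 6.834 to 7.919 in seedlings and, among the calli, to 6.683 to 26.28 with 35S:WIND1, 0.3928 to 0.4373 for T87 and 0.6327 to 0.9415 with 2,4-D. The 4 shoot meristem markers summed to 3.418 to 3.92, 9.116 to 22.83, 0.1671 to 0.2113 and 0.5487 to 0.7622 in the same order of groups, and WUS and CLV3 were not well above background in seedlings or 2,4-D-induced callus. Sums are led by the brightest genes, and members of a list could move together or apart. Against seedlings all 9 leaf markers were called lower in 35S:WIND1 callus, beside 19.6% of all genes, and in 2,4-D-induced callus, beside 24.2%. In T87 callus 7 leaf markers and all 8 root markers were called lower, beside 26.5%, and none higher. In 35S:WIND1 callus 3 of the 4 shoot meristem markers were called higher, beside 12.5%, and 0 lower. Of the 8 root markers, 4 were called higher and 2 lower in 2,4-D-induced callus than in seedlings, beside 18.6% and 24.2% of all genes. In T87 callus 2 of the 4 shoot meristem markers were called higher and 2 lower, beside 20.8% and 26.5%. In 35S:WIND1 callus 1 of the 5 vascular markers was called higher and 0 lower, beside 12.5% and 19.6%. Leaf markers were lowest in 2,4-D-induced callus. The part of such tissue differences in the A-type levels was not tested.

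The relay upstream of the A-type genes was followed through lists of its parts. Their counts stand beside shares of all genes called higher and lower of 12.5% and 19.6% for 35S:WIND1, 20.8% and 26.5% for T87, and 18.6% and 24.2% for 2,4-D-induced callus, each against seedlings. Of the 3 receptor genes 1 was called lower in 35S:WIND1 callus, AHK4, at -1.02 (adjusted p = 0.0402). This call was lost with array median scaling, local background subtraction, the deposited series values and any 1 seedling array left out. It was also lost without 35S:WIND1 replicate 1 or 3, T87 replicate 3, or 2,4-D replicate 2 or 3. AHK4 was 4.02-fold higher in T87 callus (log2 change 2.01, adjusted p = 0.000773), AHK2 was lower there (log2 change -3.19, adjusted p = 1.64e-07), and no receptor was called in 2,4-D-induced callus, where AHK2 was lower by less than 2-fold (-0.85, adjusted p = 0.00117). Among the 6 phosphotransfer genes, 1 was called lower and none higher in 35S:WIND1 callus, 3 lower and 1 higher in T87 callus, and 1 each way in 2,4-D-induced callus. AHP1 fell 8.16-fold in 35S:WIND1 callus (adjusted p = 0.00368) and 57.5-fold in T87 callus (adjusted p = 2.79e-05, 2 of 3 T87 arrays measured it). In 2,4-D-induced callus AHP1 rose 3.91-fold (adjusted p = 0.0238), a call lost without seedling replicate 2 or 3 or 2,4-D replicate 1 or 2. AHP2 rose 5.95-fold in T87 callus, and AHP4 was at least 2.86-fold lower in 2,4-D-induced callus. The median change of the 6 phosphotransfer genes in T87 callus was -2.12, or -1.02 with genes not well above background at their bounds.

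The B-type regulators, which activate the A-type genes, gave 7 tested genes of 11, and in 35S:WIND1 callus 1 was called higher, 1 lower and 5 neither, with a median change of 0.32. ARR2 was 2.31-fold higher in 35S:WIND1 callus (adjusted p = 0.000322) and 2.30-fold higher in 2,4-D-induced callus (adjusted p = 0.00019). ARR11 fell 5.42-fold in 35S:WIND1 callus, 18.2-fold in 2,4-D-induced callus and 77.3-fold in T87 callus, where 1 of 3 arrays measured it. ARR21 was at least 2.57-fold higher in T87 callus, a call lost with local background subtraction (0.82). T87 callus had 1 call in each direction, and 2,4-D-induced callus had 1 higher and 2 lower. Neither of the type-C regulators passed the filter.

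The cytokinin response factors (CRF), AP2/ERF transcription factors that act beside the B-type regulators, were higher in 2,4-D-induced callus on every array for all 6 genes, with 3 called, where 44.4% of all genes were separated upward. CRF3 had log2 levels of -3.29, -3.91 and -2.93 in seedlings and 0.28, 0.36 and 0.59 in 2,4-D-induced callus, a 13.8-fold rise (adjusted p = 6.08e-06). It was 4.65-fold lower in T87 callus (adjusted p = 0.000212). In 35S:WIND1 callus 1 CRF gene was called higher and 2 lower, and in T87 callus 1 higher and 3 lower. CRF6 was the highest call in both, at 2.89 and 2.45. CRF4 had the largest fall in 35S:WIND1 callus, at -1.99 (adjusted p = 0.0167), which was not called without seedling replicate 3 or in the deposited series values.

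Genes of cytokinin supply formed further lists. IPT genes, which act in cytokinin synthesis, had no call by limma among 6 tested in 35S:WIND1 callus. At an unadjusted p under 0.05, 1 was higher and 2 were lower. Of these, IPT9 was lower by less than 2-fold (-0.81, adjusted p = 9.24e-05). In T87 callus IPT1 rose 23.8-fold, measured on 1 of 3 seedling arrays, and IPT5 was at least 7.89-fold lower. In 2,4-D-induced callus 3 were called lower, led by IPT3, at least 21.3-fold. The median change of the 6 there was -1.57, or -1.22 with genes not well above background at their bounds. Of the 10 genes that complete or release active cytokinin (LOG and CYP735A), 5 were called lower and 1 higher in 35S:WIND1, 8 and 1 in T87, and again 5 and 1 in 2,4-D-induced callus. Both CYP735A genes, which make trans-zeatin, were well above background in seedlings and on no callus array, so they could hardly have been called higher. With genes not well above background at their bounds, the median change of the 10 went from -1.64 to -0.935 in 35S:WIND1 callus. It went from -3.67 to -2.06 in T87 callus and from -1.69 to -0.69 in 2,4-D-induced callus. CYP735A2 was at least 8.15-fold lower in 35S:WIND1 callus, LOG5 at least 27.6-fold lower in T87 callus and LOG1 45.5-fold lower in 2,4-D-induced callus. LOG4 rose 3.93-fold in 35S:WIND1 callus (adjusted p = 0.0016) and 2.30-fold in T87 callus (adjusted p = 0.0159). The T87 rise was not called without T87 replicate 2 or with local background subtraction (0.97, under the 2-fold limit). LOG5 was 2.31-fold higher in 2,4-D-induced callus, with an adjusted p of 0.0445. This call was lost with the replicate block (0.0533), the deposited series values (0.137) and normexp. It was also lost without 35S:WIND1 replicate 3 and with any 1 seedling, T87 or 2,4-D array left out.

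The CKX genes, cytokinin oxidases that break the hormone down, held the largest change of the pathway genes examined. CKX3 had log2 levels of -5.57, -5.59 and -5.14 in seedlings and 4.40, 4.38 and 4.01 in 2,4-D-induced callus, a rise of 830.5-fold (log2 change 9.70, SE 0.60, adjusted p = 5.12e-07). In T87 callus it rose 4.00-fold (adjusted p = 0.0128), which was not called with local background subtraction, and in 35S:WIND1 callus its change of 1.31 was not called (adjusted p = 0.0902). Of 6 tested, 3 were called lower and none higher in 35S:WIND1 callus, led by CKX6 at -2.92 (adjusted p = 0.000656). In T87 callus 4 were lower and 1 higher, with CKX7 at least 35.2-fold lower. The median change of the 6 there was -4.55, or -3.92 with genes not well above background at their bounds. In 2,4-D-induced callus 3 were lower and 2 higher, and CKX4 was at least 12.3-fold lower.

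**Figure D3:**
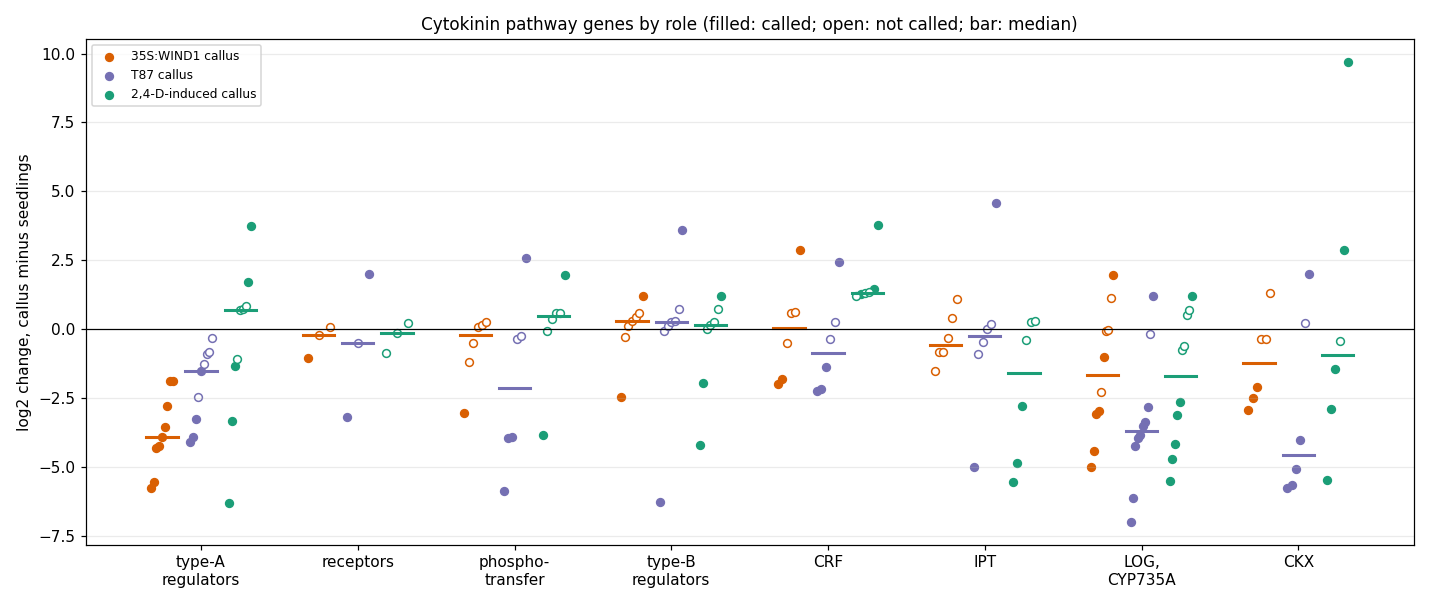
Log2 change of each tested cytokinin pathway gene in each callus against seedlings (vertical axis), grouped by its role along the horizontal axis, with filled points for called changes, open points for the others and bars for the median of each list. The A-type points of 35S:WIND1 callus all lie below 0, the B-type points spread on both sides of it, and CKX3 in 2,4-D-induced callus is the highest point at 9.70.

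Reported regulators of the A-type genes were measured as well. In the shoot meristem of Arabidopsis the homeodomain factor WUS represses ARR5, ARR6, ARR7 and ARR15, and ARF5 represses ARR7 and ARR15. WUS was not well above background in seedlings or 2,4-D-induced callus. It had log2 levels of 0.42, 1.21 and -0.35 in 35S:WIND1 callus and of -4.91, -3.51 and -4.93 in T87 callus. That is at least 113-fold higher than in seedlings in 35S:WIND1 callus (adjusted p = 2.64e-06) and at least 3.83-fold higher in T87 callus (adjusted p = 0.000265), the latter not called with local background subtraction (adjusted p = 0.0682). ARF5 rose in all 3 calli, 4.18-fold in 35S:WIND1, 3.57-fold in T87 and 6.53-fold in 2,4-D-induced callus. ARR15 was called lower in all 3, whereas ARR7 was called lower in 35S:WIND1 callus. Whether WUS or ARF5 bears on these levels was not tested.

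By likeness to the mean standardised profile of the 9 tested members over the 12 arrays, the nearest of 9049 genes with a symbol were BCCP2 (Pearson r 0.95), CYP705A25 (0.94), NTT (0.93), HAT1 (0.92) and FAR4 (0.92). These arrays are 4 groups of 3, so the likeness is mainly that of 4 group means. BCCP2, for example, had mean log2 levels of 0.49 in seedlings, -3.51 in 35S:WIND1, -2.47 in T87 and 0.13 in 2,4-D-induced callus. Within the family, the profile of a member against the mean of the others ran from 0.93 for ARR7 and ARR4 down to 0.58 for ARR8 and 0.33 for ARR16, so ARR8 and ARR16 followed the family least.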

How the data were processed

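The deposited files of single arrays give linear intensity for each spot, per the file headers, and Agilent Feature Extraction 9.1.3.1 made them, per the submitters' processing notes. The processed signal, background-subtracted by that software, was used. The authors also deposited a table of the whole series in natural log units. Comparing its columns with the arrays shows that it equals the logged processed signal less 1 constant per group. By replicate, its column medians were -1.74, -2.08 and -1.81 (seedlings), -1.93, -1.56 and -2.02 (35S:WIND1), -2.52, -2.40 and -2.57 (T87), and -2.49, -2.70 and -2.34 (2,4-D). Why each group has its own constant stays unknown.

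Computed here were log2 signals minus each array's 75th percentile. Of 39102 spots per array, 1417 controls and 25 to 218 outlier spots were left out, and none was saturated. Spots of a probe were averaged and the brightest probe that passed the filter stood for a gene, giving 21831 probes of 21347 genes. limma 3.58.1 in R 4.3.3 (lmFit, eBayes, two-sided) fitted all 12 arrays together, without a block, for 6 comparisons. The procedure was checked on simulated data, and the number of arrays limits the precision. Groups and replicate numbers came from the sample titles.

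The members and gene lists were chosen with earlier results of these data known. Named from each pathway list were the called genes with the largest rise and largest fall in each callus against seedlings. The AHK2 and IPT9 values under the 2-fold limit and CYP735A1 were added after their values were seen. The 5 nearest genes came from Pearson's r over the 12 arrays. Gene names came from locus codes in the files, and a table of assembly TAIR10.1 listed 25449 of the 25665 loci, 10189 with a symbol. No coordinate is printed, since the genome build was not given in the sources at hand.

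Header barcodes put the arrays on 3 slides, 1 for each replicate number, so the replicate block and the slide block are the same fit. Deviations from group means of same-numbered arrays correlated between -0.14 and 0.12 over 18 pairs, 2 of them above 0.1, so the numbers share a slide but the samples were not treated as paired. Alternatives were normexp background correction, local background subtraction, quantile and median scaling, the deposited series values, other filters on dim probes, the mean of probes, the block and leaving out each array. Normexp ran on the median signal and not on the mean signal that had been planned. It and local background subtraction were chosen after seeing the data.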

Additional observations from a re-analysis of the deposited data

Results flagged for a closer look

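In 5 members the calli moved opposite ways from seedlings, with every array of 2,4-D-induced callus above the seedlings and every array of another callus below them, and the difference between those calli was itself called by limma. For 35S:WIND1 minus 2,4-D-induced callus the log2 difference was -7.64 for ARR3, -4.25 for ARR4, -3.57 for ARR5, -5.11 for ARR6 and -3.50 for ARR9. For T87 minus 2,4-D-induced callus it was -7.84 for ARR3, -1.63 for ARR4, -4.06 for ARR6 and -2.23 for ARR9. The ARR3 values include arrays not well above background and are no bounds. The same pattern with a called difference was found in 2.54% of the 21347 genes tested for 35S:WIND1 and 6.37% for T87 callus. Once a pair of calli lies on opposite sides of the seedlings, a called difference is common (80.3% and 77.2% of such genes), so the call adds little to the pattern. The changes of ARR4, ARR6 and ARR9 in 2,4-D-induced callus against seedlings did not themselves pass the call, and the part of tissue makeup in these differences was not tested.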

How the results depend on the processing

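Each recomputed value below is a count of called members or their median log2 change. With normexp the lower calls against seedlings became 3 in 35S:WIND1 callus (median -2.21), 1 in T87 and 0 in 2,4-D-induced callus, which also had 0 higher calls. Normexp also gave 2 lower calls (median -0.44) for 35S:WIND1 against T87 callus and 3 (median -2.69) against 2,4-D-induced callus, and 0 higher calls for T87 against 2,4-D-induced callus. At an unadjusted p under 0.05 its counts were 5, 4 and 0 lower against seedlings, 3 higher in 2,4-D-induced callus, and 0 higher for T87 against 2,4-D-induced callus. Local background subtraction gave medians of -2.75 for 35S:WIND1 callus against seedlings and -1.01 against T87 callus, and 0 higher calls for T87 against 2,4-D-induced callus, with 1 at an unadjusted p under 0.05. Array median scaling gave a T87 median of -0.65 and 5 higher calls with a median of 1.45 in 2,4-D-induced callus. The deposited series values gave medians of 0.54 for 2,4-D-induced callus against seedlings, and of -1.05 and -2.84 for 35S:WIND1 callus against T87 and 2,4-D-induced callus, with 1 higher call for T87 against 2,4-D-induced callus. Its median over all genes was 0.51 and 0.58 in those comparisons of 35S:WIND1 callus. A filter on all 12 arrays, which leaves 6 members, gave 2 lower calls in T87 callus, 1 higher and 1 lower in 2,4-D-induced callus, and 1 higher for T87 against 2,4-D-induced callus.

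With 1 array left out, the lower calls in T87 callus against seedlings ranged from 4 to 7 (median change -1.68 to -1.27), those of 35S:WIND1 against T87 callus from 5 to 8 (-1.88 to -1.27), and the higher calls of T87 against 2,4-D-induced callus from 1 to 2 (median change of all members -1.95 to -1.11). The medians ranged from -3.99 to -3.45 for 35S:WIND1 callus and from 0.63 to 0.73 for 2,4-D-induced callus, both against seedlings, and from -3.74 to -3.22 for 35S:WIND1 against 2,4-D-induced callus. The counts that no left-out array moved were 9 lower in 35S:WIND1 callus, 2 higher and 3 lower in 2,4-D-induced callus, 7 lower for 35S:WIND1 and 5 lower for T87 against 2,4-D-induced callus.

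With the replicate block, 5 members were called lower in T87 callus against seedlings (ARR7 added, adjusted p = 0.0326) and 7 in 35S:WIND1 against T87 callus (ARR5 added, adjusted p = 0.0477), and no member's call was lost. In 6 of 18 pairings an array correlated best with its own number.

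Signs turned for ARR16 with normexp, to -0.31 for 35S:WIND1 and -0.11 for T87 against 2,4-D-induced callus, and for the former with 1 array left out, where it ran from -0.31 without 35S:WIND1 replicate 3 to 1.38. ARR8 turned in T87 callus with quantile normalization (0.15) and array median scaling (0.54), and in 35S:WIND1 against 2,4-D-induced callus with the deposited values (0.10). ARR5 turned in T87 callus with array median scaling (0.032). ARR3, below background in both calli, turned for 35S:WIND1 against T87 callus with array median scaling (-0.25) and without 35S:WIND1 replicate 3 (-0.54) or T87 replicate 3 (-0.03). ARR7 turned for T87 against 2,4-D-induced callus without T87 replicate 1 (0.38) and ran down to -0.61 without T87 replicate 3. The other member values kept their direction, 1092 with the same call, 43 with a call lost and 24 with one gained. The causes were not tested. Of 74 called changes among WIND1 and the pathway and regulator genes, 27 were called with normexp and 65 to 73 under each other setting run for them. ARR3, ARR15, ARR16 and ARR17 signals near background limit their folds.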
